A study of Gallus gallus with 6 samples.

Results

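Genes of the cell cycle and of DNA replication were described in the liver of Lushi chickens, a Chinese domestic breed, before and after the onset of lay. The list held 49 gene names, drawn up by known function but with earlier results of these data known. Of these names, 45 were found among the 14078 genes of the table. RNA-seq had been performed on the livers of 6 females with no treatment recorded, of which 3 were juvenile and aged 20 weeks (L20) and 3 were in lay and aged 30 weeks (L30), with 1 library per hen. Age and the state of lay changed together between the groups, so they cannot be told apart. The values were FPKM, fragment counts scaled for transcript length and between libraries, so levels can be set side by side between genes. Comparisons between hens depend on the scaling between libraries, and results with other scalings are given below.

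A dividing cell first licenses its replication origins by loading the MCM helicase with ORC, CDC6 and CDT1, fires them with CDC45 and the GINS complex, and copies its DNA with polymerases held on the template by the PCNA clamp. It then condenses its chromosomes with the SMC proteins and attaches them to the spindle through kinetochores, while the BUB and MAD proteins hold back the anaphase-promoting complex until every chromosome is attached. Cyclin-dependent kinases drive these steps, and the cytokinesis proteins finally part the daughter cells. Most hepatocytes of an adult liver rest outside the cycle, and the same genes can be expressed by any dividing blood, immune or endothelial cell in the tissue.

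Among the 45 genes, the genes of mitosis that passed the test were all lower in the laying hens. Only 1 gene grouped under replication passed it, TOP2A, which itself acts in mitosis. Of 21 genes of the spindle checkpoint, of chromosome structure and movement, and of cytokinesis, 12 fell, none rose and 9, among them BUB1 and KIF20A, did not pass the test, and the median ratio of the L30 to the L20 mean FPKM was 0.485. Of 18 genes of origin licensing, DNA synthesis and nucleotide supply, only TOP2A fell, none rose and 17 did not pass, with a median ratio of 1.05. These calls rested on unadjusted p-values from a fit without a minimum FPKM, in which 10.9% of all genes were lower and 8.82% higher. Of the 21 genes, only BUB1B had an adjusted p at or below 0.05 (0.0493, limma). The difference between these sets of genes was not itself tested. How many of the 18 genes had a negative log2 fold change depended on L30 hen 1 and on the scaling, as given below. In a wider list given below, 15 of 60 other genes of mitosis fell and 3 rose without a minimum FPKM. Of 41 other replication genes there, 5 fell and 1 rose. At a mean FPKM of at least 1, 4 of 28 other genes of mitosis fell and 3 rose. Of 30 other replication genes, 5 then fell and 1 rose. Of the 45 genes, 24 reached that minimum, and of these 4 fell and none rose. At that minimum 11.7% of all tested genes were lower and 11.0% higher. In bulk liver, fewer cells of a dividing type and less RNA per cell cannot be told apart.

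A gene was called when the unadjusted p-value of limma on log2(FPKM + 1) was 0.05 or less, the threshold that the study used for differential expression. Over all 45 genes, fitted together with the whole table of 14078 genes, 15 (33.3%) were called lower in L30, against 10.9% of all genes, and 1 (2.22%) was called higher, against 8.82% of all genes. In either direction 16 genes were called, against 19.8% of all genes. The 3 laying hens all lay below the 3 juvenile hens for 17 genes (37.8%), against 15.0% of all genes, and all above for 1 gene (2.22%), against 11.3% of all genes. The median log2 fold change was -0.20 over the 45 genes and -0.03 over all genes. Since the list was drawn up with earlier results known, these shares describe it and do not test it. On this scale the changes of genes below an FPKM of 1 are understated, and 21 of the 45 genes had a mean FPKM below 1.

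The main test was limited to genes whose mean FPKM reached 1. Among the 24 members of the list above that minimum, 4 were called lower (CCNB2, SMC4, KIF23 and PRC1), none higher and 20 were not called. Of the 9732 genes tested at that minimum, 11.7% were called lower and 11.0% higher, or 22.7% in either direction. A stricter rule asked for an adjusted p not above 0.05 together with group means that differed 2-fold or more. None of the 24 genes met it, beside 2.75% of the tested genes. Without the minimum, CCNB3 and BUB1B met it, against 1.32% of all genes. Values for genes below an FPKM of 1 come from the fit without the minimum, and a value for any other gene comes from the fit with it unless stated.

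**Figure D1:**
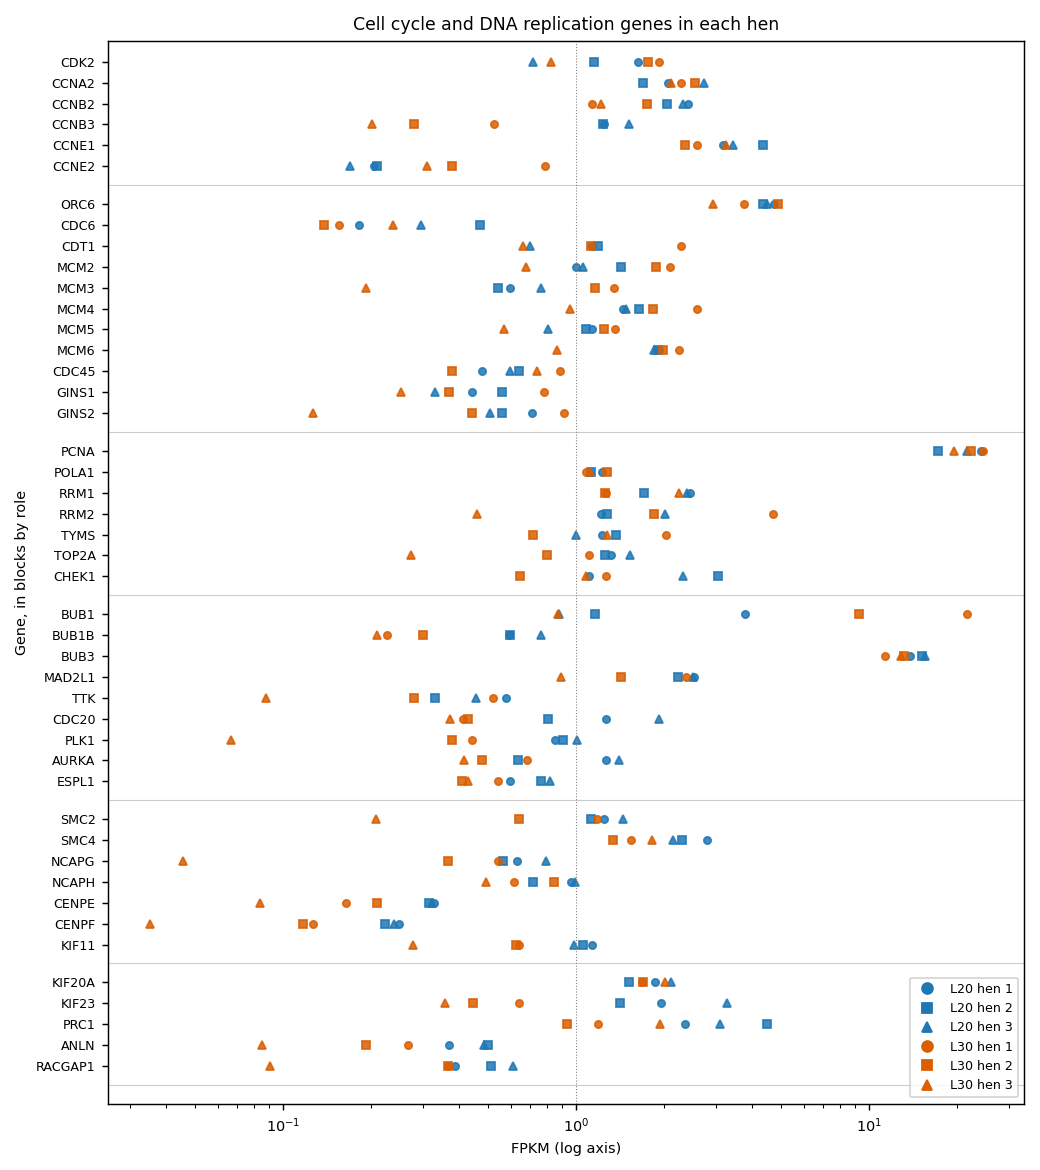
FPKM (log axis) of each of the 45 cell cycle and DNA replication genes in each of the 6 hens, in blocks by role, with L20 hens in blue and L30 hens in orange. PCNA and BUB3 lay above most other genes in every hen, and the L30 hens lay to the left for most genes of the lower blocks, which hold the genes of mitosis.

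The cyclins and cyclin-dependent kinases gave 2 falls (CCNB2 and CCNB3) and 1 rise (CCNE2) among 6 genes. Over all genes without the minimum FPKM, 10.9% fell and 8.82% rose. CCNB3, a B-type cyclin of mitosis and meiosis (chr4:1813108-1815939, galGal4), had FPKM of 1.25, 1.24 and 1.52 in L20 hens 1 to 3 and of 0.528, 0.281 and 0.202 in L30 hens 1 to 3. The groups did not overlap, and the L30 mean was 0.253 of the L20 mean. Its log2 fold change was -0.81 with a standard error of 0.11 and an adjusted p of 0.0389 (limma), and leaving out any 1 hen moved that adjusted p to between 0.0515 and 0.14 while the unadjusted p remained below 0.05.

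CCNB2, the B-type cyclin that activates the mitotic kinase, had FPKM of 2.42, 2.05 and 2.32 in L20 and of 1.14, 1.75 and 1.22 in L30. The groups did not overlap, and its log2 fold change was -0.47 with a standard error of 0.14 (limma, unadjusted p 0.0134, adjusted p 0.116). The kinase itself, CDK1, was held in the table under its older name CDC2 and was therefore not among the 45 genes. CDC2 gave 5.12, 5.54 and 7.09 FPKM in L20 and 3.37, 2.55 and 0.539 in L30, a ratio of 0.364, with no overlap and with L30 hen 3 far below the others. Its log2 fold change was -1.25 with a standard error of 0.39 (limma, unadjusted p 0.0166, adjusted p 0.13).

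CCNE2, one of the E-type cyclins that start S phase, was the only gene of the 45 called higher. Its FPKM were 0.205, 0.209 and 0.169 in L20 and 0.783, 0.378 and 0.31 in L30, a ratio of 2.52, with no overlap (limma, unadjusted p 0.0419, adjusted p 0.234). This value is uncertain, because the table gives CCNE2 exactly the same span (chr2:126126451-126161848) as INTS8, a subunit of the Integrator complex with a mean FPKM of 5.73. The call was also lost without L20 hen 1, 2 or 3 or L30 hen 2, with unadjusted p between 0.0513 and 0.105. Its paralogue CCNE1 was at 3.18, 4.37 and 3.44 FPKM in L20 and at 2.59, 2.36 and 3.26 in L30, which overlapped (unadjusted p 0.0738).

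CCNA2, the cyclin of S phase and early mitosis, was at 1.70 to 2.74 FPKM over the 6 hens, and CDK2, the partner of the E- and A-type cyclins, was at 0.712 to 1.93. Neither passed the test, and both had overlapping groups.

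None of the 11 genes of origin licensing and firing was called, beside 19.8% of all genes, and all 11 had overlapping groups. ORC6, a subunit of the origin recognition complex, was the highest of them, at 4.75, 4.36 and 4.51 FPKM in L20 and 3.74, 4.89 and 2.95 in L30 (log2 fold change -0.21, standard error 0.16, unadjusted p 0.245). The large subunit of that complex was held under the older name ORC1L, at 0.374 to 0.487 FPKM in L20 and 0.107 to 0.422 in L30, and did not pass the test (unadjusted p 0.0998).

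The MCM subunits, which form the ring-shaped replicative helicase, moved together among the hens but not with the group. MCM2 was at 1.00, 1.43 and 1.06 FPKM in L20 and at 2.09, 1.88 and 0.675 in L30. MCM3 was at 0.596, 0.544 and 0.759 FPKM in L20 and at 1.35, 1.16 and 0.192 in L30. For both genes L30 hens 1 and 2 lay above every juvenile hen and L30 hen 3 lay below every one.

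MCM4 showed the same order, at 1.45, 1.64 and 1.48 FPKM in L20 and 2.59, 1.84 and 0.954 in L30. MCM5 was at 1.14, 1.08 and 0.804 FPKM in L20 and at 1.36, 1.25 and 0.57 in L30. MCM6 was at 1.93, 1.91 and 1.85 FPKM in L20 and at 2.25, 1.99 and 0.86 in L30. In all 5 subunits L30 hen 1 was the highest and L30 hen 3 the lowest of the 6 hens, so that the spread within the laying group was wider than the distance between the group means. The fitted log2 fold changes lay between -0.14 (MCM6) and 0.19 (MCM2), with standard errors of 0.19 to 0.26. Without L30 hen 3 they lay higher, and MCM2 (0.47, unadjusted p 0.0229) and MCM3 (0.46, unadjusted p 0.00519) were then called higher, with adjusted p of 0.146 and 0.0993 (limma).

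The other licensing genes were expressed at low levels. CDC6 and CDT1, which load the helicase, were at 0.138 to 0.472 and 0.661 to 2.28 FPKM over the 6 hens. CDC45, GINS1 and GINS2, which complete the active helicase, were at 0.377 to 0.881, 0.253 to 0.782 and 0.127 to 0.909 FPKM. CDC6 rested on 2 to 12 reads per library and GINS1 on 4 to 19.

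Among the 7 genes of DNA synthesis and nucleotide supply, PCNA was the highest, and of the 45 genes it had the highest mean. PCNA was at 24.2, 17.3 and 21.6 FPKM in L20 and at 24.5, 22.3 and 19.6 in L30, and the groups overlapped (log2 fold change 0.08, standard error 0.17, unadjusted p 0.646). POLA1, the catalytic subunit of the primase-bound polymerase, was the steadiest, at 1.08 to 1.28 FPKM over the 6 hens with a ratio of 1.00.

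RRM2, the small subunit of ribonucleotide reductase, spread widely within L30. It was at 1.22, 1.28 and 2.02 FPKM in L20 and at 4.72, 1.85 and 0.462 in L30, with L30 hen 1 the highest and L30 hen 3 the lowest of all hens. The large subunit RRM1 did not show this order, at 2.45, 1.71 and 2.39 FPKM in L20 and 1.27, 1.26 and 2.26 in L30. TYMS, which makes thymidylate, was at 0.715 to 2.04 FPKM over the 6 hens, and none of these 3 genes passed the test.

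TOP2A, the topoisomerase that untangles sister chromatids in mitosis, was at 1.32, 1.26 and 1.53 FPKM in L20 and at 1.11, 0.795 and 0.275 in L30. The groups did not overlap and the ratio was 0.531, but its unadjusted p was 0.0445 without the minimum FPKM and 0.0529 with it, so its call rests on that choice. CHEK1, the kinase that halts the cycle when replication stalls, was at 1.11, 3.06 and 2.33 FPKM in L20 and at 1.27, 0.643 and 1.08 in L30, which overlapped (ratio 0.459, unadjusted p 0.0543).

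**Figure D2:**
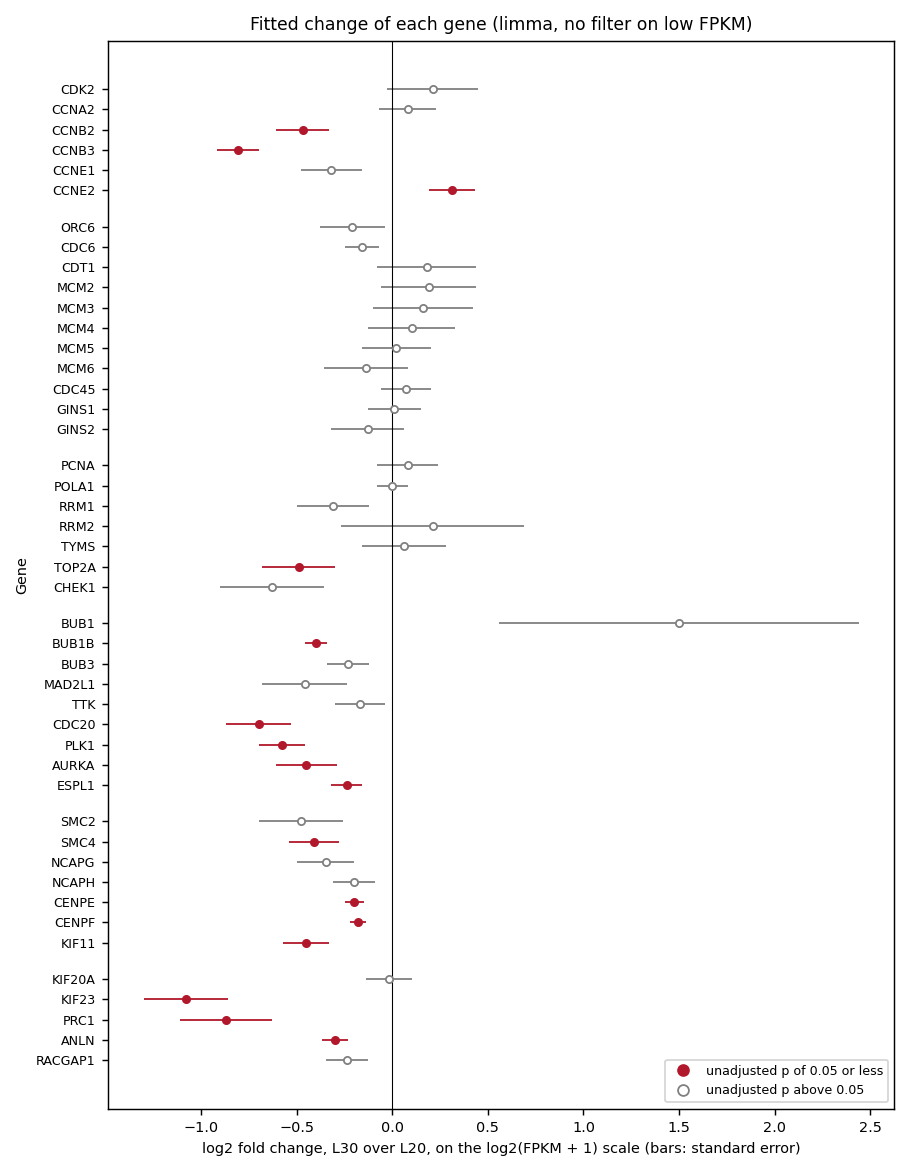
Fitted log2 fold change of each of the 45 genes, L30 over L20, on the log2(FPKM + 1) scale from limma without a minimum FPKM, with bars of 1 standard error. Filled points mark an unadjusted p of 0.05 or less; CCNE2 is the only one of these to the right of 0, and BUB1, with the widest bar, is an open point at 1.5.

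Of the 9 genes of the spindle checkpoint and mitotic exit, 5 fell, beside 10.9% of all genes, and 4 did not pass the test. BUB1B, the checkpoint protein that binds and inhibits CDC20 (chr5:601358-621958), was at 0.594, 0.596 and 0.76 FPKM in L20 and at 0.227, 0.3 and 0.209 in L30. The groups lay well apart with a ratio of 0.378, and the log2 fold change was -0.40 with a standard error of 0.06 and an adjusted p of 0.0493 (limma). Without any 1 hen that adjusted p lay between 0.0829 and 0.139, and the unadjusted p remained below 0.05.

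CDC20, the activator of the anaphase-promoting complex, was at 1.27, 0.807 and 1.92 FPKM in L20 and at 0.413, 0.428 and 0.372 in L30. The laying hens were close to each other and all below the juvenile hens, with a ratio of 0.304 and a log2 difference of -0.70 (standard error 0.17, unadjusted p 0.00669, adjusted p 0.105 in limma). PLK1, a kinase needed for mitotic entry and spindle assembly, was at 0.849, 0.907 and 1.01 FPKM in L20 and at 0.444, 0.379 and 0.0665 in L30. Its ratio was 0.322 with no overlap (unadjusted p 0.00348, adjusted p 0.085 in limma), and the lowest value, in L30 hen 3, rested on 2 reads.

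AURKA, the kinase of the spindle poles, was at 1.27, 0.636 and 1.41 FPKM in L20 and at 0.684, 0.479 and 0.416 in L30. It was called (ratio 0.477, unadjusted p 0.0347), although L20 hen 2 lay below L30 hen 1, and the call was lost without L20 hen 1 or 3 or L30 hen 2 or 3 (unadjusted p 0.092 to 0.103). ESPL1, or separase, which cleaves the cohesin between sister chromatids, was at 0.595, 0.763 and 0.817 FPKM in L20 and at 0.542, 0.409 and 0.43 in L30. Its groups did not overlap (ratio 0.635, unadjusted p 0.0198), and its call was lost without L20 hen 2 or 3 or L30 hen 2 or 3 (unadjusted p 0.054 to 0.0587).

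The checkpoint genes that were not called included the most abundant one. BUB3, which recruits the BUB proteins to kinetochores, was at 13.8, 15.2 and 15.5 FPKM in L20 and at 11.4, 13.2 and 12.9 in L30, with no overlap, a ratio of 0.843 and an unadjusted p of 0.0914. MAD2L1, which inhibits CDC20 at unattached kinetochores, ranged from 2.24 to 2.54 FPKM in L20 and from 0.891 to 2.37 in L30. TTK, the kinase that starts the checkpoint signal, ranged from 0.33 to 0.576 FPKM in L20 and from 0.0875 to 0.523 in L30.

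BUB1, the checkpoint kinase, behaved unlike its partners and was singled out after its values were seen. It was at 3.77, 1.16 and 0.875 FPKM in L20 and at 21.7, 9.27 and 0.87 in L30. L30 hens 1 and 2 lay above every juvenile hen, while L30 hen 3 was the lowest of the 6. The ratio was 5.48, but with a log2 fold change of 1.5 and a standard error of 0.91 the gene did not pass the test (unadjusted p 0.148). Without L30 hen 3 the log2 fold change was 2.51 with an unadjusted p of 0.00388 and an adjusted p of 0.0651 (limma). The other member of the family, BUB1B, was lower in both of those hens.

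The 7 genes of chromosome structure, kinetochores and motors all had a negative log2 fold change, and 4 of them fell. Without the minimum FPKM, 7919 of all 14078 genes had a negative log2 fold change and 10.9% were called lower. SMC4, a core subunit of condensin, was at 2.8, 2.3 and 2.14 FPKM in L20 and at 1.54, 1.34 and 1.82 in L30, with no overlap. Its log2 fold change was -0.41 with a standard error of 0.13 (unadjusted p 0.0194, adjusted p 0.141 in limma), and the call was lost without L20 hen 1 or L30 hen 2 (unadjusted p 0.0675 and 0.055).

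KIF11, the motor that pushes the spindle poles apart, was at 1.14, 1.06 and 0.988 FPKM in L20 and at 0.64, 0.626 and 0.278 in L30. CENPE, the kinetochore motor, was at 0.327, 0.316 and 0.322 FPKM in L20 and at 0.165, 0.209 and 0.0837 in L30. CENPF, a large kinetochore protein, was at 0.249, 0.224 and 0.239 FPKM in L20 and at 0.127, 0.117 and 0.0352 in L30. In each of these 3 genes the juvenile hens were close to each other, every laying hen was lower and L30 hen 3 was the lowest. The ratios were 0.485, 0.475 and 0.392, and the unadjusted p-values 0.00758, 0.00777 and 0.00669 (adjusted p 0.111, 0.112 and 0.105, limma).

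The remaining condensin genes did not pass the test. NCAPG was at 0.631, 0.565 and 0.791 FPKM in L20 and at 0.543, 0.365 and 0.0458 in L30, with no overlap (unadjusted p 0.057). SMC2 ranged from 1.13 to 1.45 FPKM in L20 and from 0.208 to 1.18 in L30, and NCAPH from 0.717 to 0.994 and from 0.493 to 0.845, and in both the groups overlapped. A further table row named CENPF is described there as centriolin, a centrosomal protein, and was set aside.

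Of the 5 cytokinesis genes, 3 fell, beside 10.9% of all genes, and 2 did not pass the test. KIF23, the motor subunit of centralspindlin (chr10:18828577-18846365), was at 1.96, 1.42 and 3.27 FPKM in L20 and at 0.641, 0.445 and 0.359 in L30. The groups were far apart, with a ratio of 0.217, the lowest of the 45 genes. The log2 fold change was -1.08, its standard error 0.23 and its unadjusted p 0.00264 (adjusted p 0.058 in limma). It was called without any 1 hen, with log2 fold changes from -1.27 to -0.86.

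PRC1, which bundles the microtubules between the separating chromosomes, was at 2.36, 4.51 and 3.1 FPKM in L20 and at 1.19, 0.931 and 1.94 in L30. The groups did not overlap, with a ratio of 0.408, and the log2 fold change was -0.87 with an unadjusted p of 0.00961 (standard error 0.24, adjusted p 0.10 in limma). ANLN, or anillin, the scaffold of the contractile ring, was at 0.369, 0.5 and 0.486 FPKM in L20 and at 0.268, 0.193 and 0.0848 in L30, again with no overlap (ratio 0.403, unadjusted p 0.00655, adjusted p 0.104 in limma).

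RACGAP1, which forms centralspindlin with KIF23, was at 0.387, 0.513 and 0.611 FPKM in L20 and at 0.365, 0.365 and 0.0908 in L30 (ratio 0.544, unadjusted p 0.0664). KIF20A, a motor of the central spindle, was at 1.86, 1.52 and 2.11 FPKM in L20 and at 1.68, 1.69 and 2.01 in L30 (ratio 0.98, unadjusted p 0.906). Its value is uncertain, since the table gives it the same span (chr13:9368382-9397065) as SFXN1, a mitochondrial serine transporter with a mean FPKM of 36.1.

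**Figure D3:**
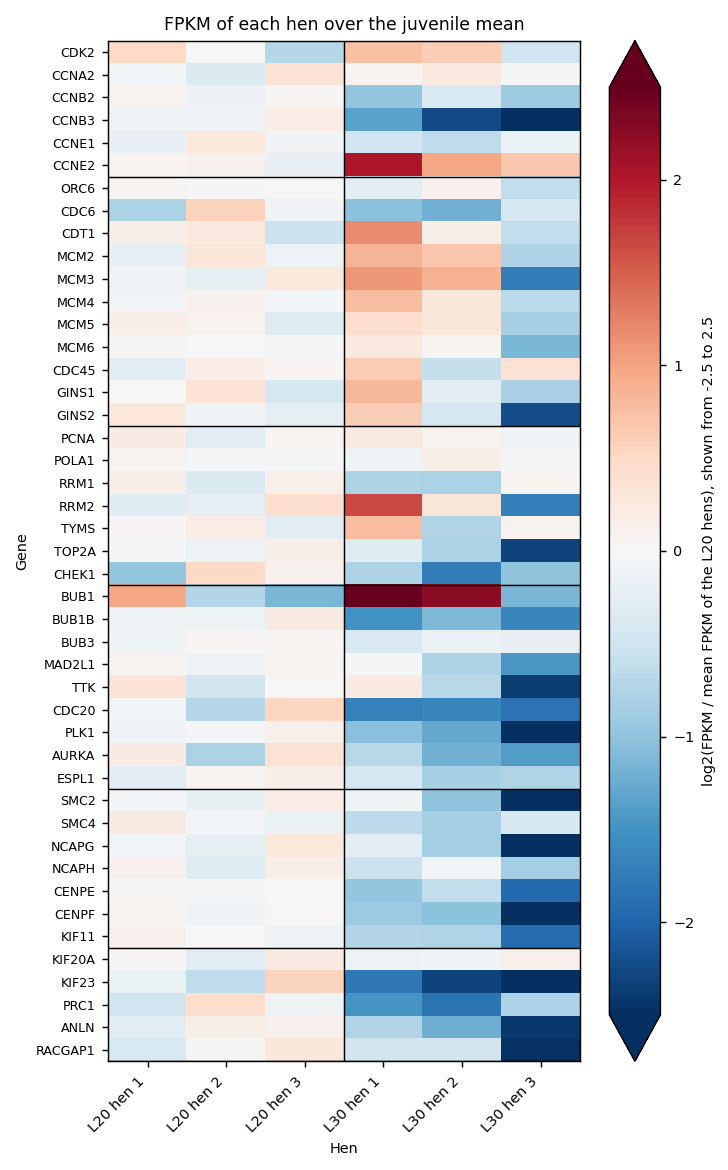
FPKM of each gene in each hen relative to the mean of its 3 L20 hens, on a log2 colour scale, with genes in blocks by role and hens in columns. The column of L30 hen 3 holds the deepest blue, for low values, in most blocks, and L30 hen 1 is above the L20 mean for most licensing genes and below it for most genes of mitosis.

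The laying hens differed from each other as well as from the juvenile hens. L30 hen 3 was the lowest of the 6 hens in 28 of the 45 genes and the highest in none. L30 hen 1 was the highest in 15 genes, 9 of which were licensing genes. The share of all genes that were lowest or highest in each hen was not counted. Whether this order of the hens is particular to these genes was therefore not tested. The median ratio to the L20 mean over all 45 genes was 0.82, 0.651 and 0.539 in L30 hens 1, 2 and 3.

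For the licensing genes that median ratio was 1.54, 1.08 and 0.582 in L30 hens 1, 2 and 3. For chromosome structure, kinetochores and motors it was 0.639, 0.557 and 0.26, and for cytokinesis 0.594, 0.427 and 0.188. For the spindle checkpoint it was 0.748, 0.565 and 0.367. By these medians all 3 laying hens were below the juvenile mean in the mitotic roles, whereas in licensing they lay on both sides of it. Without L30 hen 3 and without the minimum FPKM, 13 of the 45 genes were called lower and 4 higher. Of the 21 genes of mitosis, 10 were then called lower and 1, BUB1, higher. The share over all genes without that hen was counted only at the minimum FPKM. There 1115 of 9732 genes were called lower and 1159 higher, beside 6 and 2 of the 24 members. Without L30 hen 1 and without the minimum FPKM, 15 of the 18 genes of licensing and DNA synthesis had a negative log2 fold change. Their median was -0.14, beside -0.03 over all genes, and 1 of them was called lower. With all hens, 7 of the 18 were negative and the median was 0.01. The median of the 21 genes of mitosis was -0.39 without L30 hen 1 and -0.35 with all hens.

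The depth of these values was limited. The libraries held 13764761 to 21570437 reads assigned to genes, as recovered from the deposited scaled counts, and 2370 to 8095 of them fell on the 45 genes. The step of a library was its commonest positive scaled count, refined over low multiples of that value. A gene of the list had a median of 62 to 77 reads per L20 library and of 70, 33 and 24 reads in L30 hens 1, 2 and 3, with a minimum of 2. With 3 hens against 3, an exact permutation test of a single gene cannot go below 0.1.

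The other genes of the cell cycle were counted from a list of 164 names, of which 136 were in the table and 86 reached the minimum FPKM. Of those 86 genes, 12 fell, 7 rose and 67 did not pass, beside 11.7% and 11.0% of all tested genes. Among 28 genes of G1 entry and its inhibitors, CCND3, CDKN2C and MYBL2 fell and CDK6, CCNG2 and BTG1 rose. Among 30 other replication genes, DBF4, RFC2, RPA3, FEN1 and DNMT1 fell and 1 gene rose. Among 28 other genes of mitosis, SPC25, UBE2C, TPX2 and HMGB2 fell and ANAPC5, STMN1 and WAPAL rose. Without the minimum FPKM, 15 of 60 other genes of mitosis fell and 3 rose, with a median ratio of 0.804. In that fit 5 of 41 other replication genes fell and 1 rose. Of 35 genes of G1 entry and its inhibitors, 3 fell and 4 rose. Over all genes of that fit 10.9% were lower and 8.82% higher.

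CDK6, a kinase of G1, was at 4.26, 6.5 and 5.61 FPKM in L20 and at 30.4, 23.1 and 9.59 in L30, with a log2 fold change of 1.65 (adjusted p 0.0804 in limma). STMN1, or stathmin, which destabilises microtubules, was at 9.65, 5.66 and 9.61 FPKM in L20 and at 39.9, 11.6 and 16.9 in L30 (log2 fold change 1.20, unadjusted p 0.0344). The groups did not overlap in either gene.

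Among the 12 called falls at the minimum FPKM, the largest on the log2(FPKM + 1) scale, which understates low genes, were those of UBE2C, CDKN2C and HMGB2. By the ratio of means, CDKN2C (0.403), UBE2C (0.392), TPX2 (0.55), SPC25 (0.571) and MYBL2 (0.581) all changed more than HMGB2 (0.656). UBE2C, the ubiquitin carrier of the anaphase-promoting complex, was at 4.82, 1.9 and 5.05 FPKM in L20 and at 1.88, 1.83 and 0.907 in L30. CDKN2C, an inhibitor of CDK4 and CDK6, was at 1.37, 2.05 and 1.87 FPKM in L20 and at 0.551, 0.495 and 1.08 in L30. HMGB2, a chromatin protein of dividing cells, was at 3.96, 2.88 and 4.42 FPKM in L20 and at 2.75, 2.51 and 2.13 in L30. Each had non-overlapping groups, with log2 fold changes of -0.91, -0.70 and -0.45. MKI67, the usual marker of proliferating cells, was at 0.935, 0.956 and 1.08 FPKM in L20 and at 0.837, 0.619 and 0.33 in L30, and was called lower without the minimum FPKM (unadjusted p 0.0414).

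The summed markers of 3 types of cell other than hepatocytes were lower in every laying hen than in every juvenile hen, and those of 3 others overlapped between the groups. The label of liver fitted the data, since 12 of 13 hepatocyte markers were found and their summed FPKM was 26436 to 51919 in every hen. That sum was also lower in L30 (26436 to 38753) than in L20 (46899 to 51919), but the genes did not move together. Of 11 tested hepatocyte markers, 5 fell, FGA, FGB, FGG and APOA1 among them, 3 rose (ALB, HNF4A and AHSG) and 3 did not pass, and the median ratio was 1.09. Of 11 macrophage and other myeloid markers, 9 fell and none rose, and their summed FPKM was 567 to 856 in L20 and 340 to 463 in L30. Of 12 tested lymphocyte markers, 6 fell and none rose, with sums over 17 genes of 62.6 to 81.2 in L20 and 43.0 to 55.2 in L30. Of 11 endothelial markers, 4 fell and 1 rose, with sums of 105 to 127 in L20 and 62.5 to 95 in L30. These markers were tested at the minimum FPKM, where 11.7% of all tested genes fell and 11.0% rose.

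The sums of the remaining lists overlapped between the groups. Erythroid markers summed to 48.4 to 189 FPKM in L20 and 72.8 to 161 in L30 over 12 genes, with none of the 5 tested called. Without the minimum FPKM, only HEMGN of the 12 was called, beside 19.8% of all genes. It was higher in L30 (limma, unadjusted p 0.00973). It was at 0.0519 to 0.0613 FPKM in L20, on 1 read per library, and at 0.237 to 0.931 in L30. Stellate cell and fibroblast markers summed to 108 to 160 FPKM in L20 and 84.2 to 138 in L30 over 9 genes. Of the 8 tested, 2 were called lower, beside 11.7% of all tested genes. Bile duct markers summed to 9.97 to 18.3 FPKM in L20 and 6.87 to 26.1 in L30 over 5 genes, with neither of the 2 tested called. The markers at 0 in at least 1 hen included HBE and HBZ (embryonic globins), PAX5 and CD72 (B cells) and CLDN4 (bile duct). L30 hen 3, the lowest in most cell cycle genes, also had the lowest lymphocyte sum, but not the lowest myeloid or endothelial sum, which were those of L30 hen 2. The part of these cells in the lower values of the genes of mitosis was not tested.

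**Figure D4:**
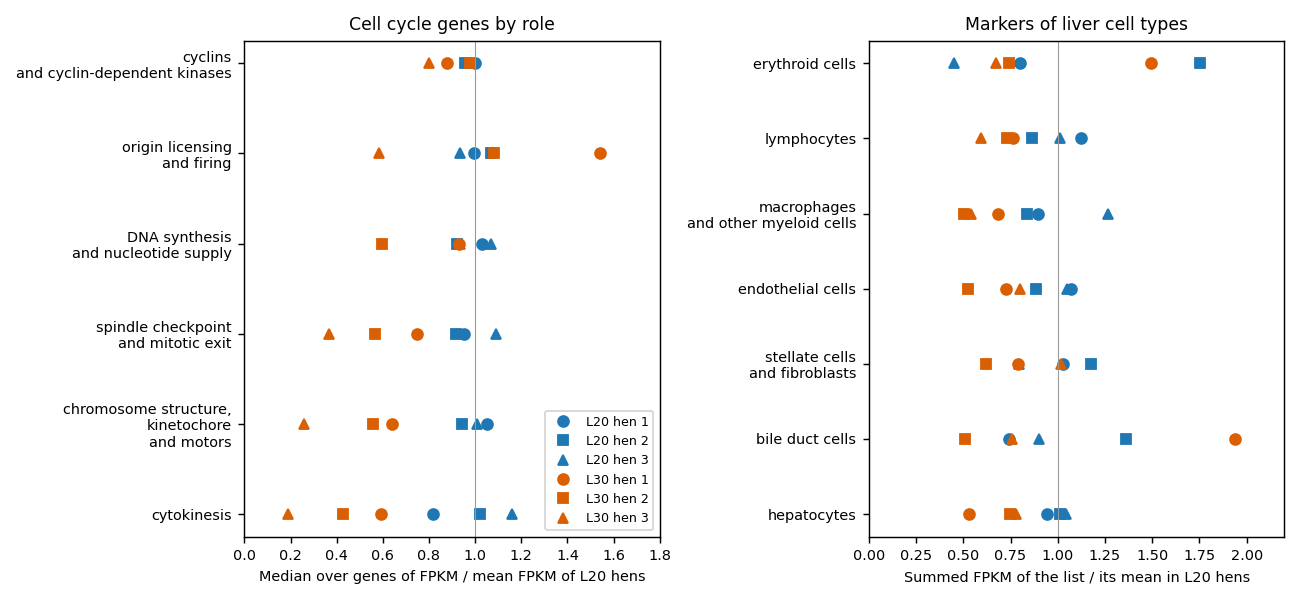
Left, median over the genes of each role of FPKM divided by the mean of the L20 hens, for each hen; right, summed FPKM of each marker list divided by its L20 mean. In the lower 3 roles the L30 hens lie below every L20 hen, as they do for the lymphocyte, myeloid, endothelial and hepatocyte sums; the hepatocyte sum falls with the abundant FGA, FGB, FGG and APOA1, while ALB, HNF4A and AHSG rose.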

How the data were processed

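Liver RNA of 6 hens was sequenced, 1 library per hen, so that replicates were separate animals. According to the methods and labels, reads were aligned to galGal4 with TopHat2 2.0.9 after base calling with CASAVA 1.8.2. Gene expression was deposited by the authors as FPKM, with a second set of normalised counts, here a signal (scaled count) per gene. The FPKM followed these scaled counts between libraries (median ratio 0.9943 to 1.02), so they were not scaled to total reads alone. Reads recovered from the step of the scaled counts were whole, within 0.1 reads, for at least 99.89% of low values, but 2, 2 and 1 values fell below the step in L20 hen 3 and L30 hens 2 and 3, so they served only to describe depth and no count test was run.

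Genes were matched by symbol. Of 49 names, CDK1, ORC1, MCM7 and MCM10 were not matched, and 46 rows carried the other 45. The members and gene lists were chosen with earlier results of these data known. limma 3.58.1 (R 4.3.3; trend, two-sided) was run on log2(FPKM + 1) over genes whose mean FPKM reached 1, with Benjamini-Hochberg adjustment over all genes tested, and again over all 14078 genes for members below that mean. An unadjusted p not above 0.05 made a call. Named with the value of every hen were members with non-overlapping groups, members called, the highest of each role and the MCM subunits; among the other cell cycle genes, those meeting the stricter rule and the 3 largest rises and falls among those called. BUB1, MKI67 and the names of the remaining called genes were added after their values were seen. Scripts were tested on simulated data, with changes set only in genes of mean FPKM of at least 5. Most members lay below that level. Promoter motifs were not analysed here, and some genes that these rules would name are not reported here. Python 3.11.15 with pandas 2.3.3, numpy 2.4.6 and matplotlib 3.10.9 was used for the remaining steps.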

Additional observations from a re-analysis of the deposited data

How the results depend on the processing

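The 15 named genes called as reported kept their direction in all 266 alternative values and their call in 246. The 20 lost calls belonged to CCNE2, AURKA, ESPL1 and SMC4. TOP2A, whose call came from the fit without the minimum FPKM, was not among these 15. With the minimum, leaving out 1 hen moved its unadjusted p (limma) to between 0.0182 and 0.135. The 4 members called at a mean FPKM of at least 1 became 7 with upper-quartile scaling, 10 when FPKM were rescaled to all scaled counts, 16 with no filter and 0 of 3 tested at a mean FPKM of at least 5; leaving out 1 hen gave 4 to 8. Those meeting the stricter rule (0) became 1 with a pseudocount of 0.1, of 0.01 or on log2(scaled count + 1), and 2 with rescaling to all scaled counts or no filter; leaving out 1 hen gave 0. The 16 calls without a filter became 25, all lower, with rescaling to all scaled counts, and 12 to 19 without 1 hen. With the same rescaling and no filter, 4 of the 18 genes of licensing and DNA synthesis were called lower and 14 had a negative log2 fold change. Their median was then -0.13, beside -0.17 over all genes. That rescaling moved the median log2 fold change of all genes from -0.04 to -0.26 (with the minimum FPKM) and the calls over all genes from 2213 to 3324 (1143 to 2817 lower, 1070 to 507 higher); a mean FPKM of at least 5 gave 1459, and leaving out 1 hen 1569 to 2274. The 19 other cell cycle genes called became 30 with it, 31 with no filter and 9 at a mean FPKM of at least 5, and 9 to 17 without 1 hen.

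With the replicate number as a block, 10 of the other cell cycle genes were called, against 19, and 12 members were lower and 2 higher without a filter, BUB1 (unadjusted p 0.0401 in the fit with the minimum FPKM) among the latter. Same-numbered hens correlated by 0.0166, 0.0117 and 0.0943 in their deviations from the group means. L20 hens 2 and 3 correlated best with the same-numbered L30 hen, and L20 hen 1 with L30 hen 2 (0.0595). All these values are low and rest on 3 hens per group, so they cannot show whether the numbers pair the hens.

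The genes that changed sign were not called in the main comparison. MCM4 went to -0.06 and PCNA to -0.18 when rescaled to all scaled counts. MCM5 went to 0.00 and -0.01 with pseudocounts of 0.1 and 0.01, to -0.01 with upper-quartile scaling and to -0.12 when rescaled to all scaled counts. Without 1 hen, MCM3 ranged from -0.02 to 0.46, MCM4 from -0.10 to 0.34, MCM5 from -0.09 to 0.20, MCM6 from -0.29 to 0.11 and PCNA from -0.05 to 0.18. The cause of these changes was not tested. The planned edgeR and DESeq2 fits were not run, because some scaled counts of L20 hen 3 and L30 hens 2 and 3 fell below the step. Low read numbers limit most values below an FPKM of 1, and only adjusted p-values of CCNB3 and BUB1B were at or below 0.05.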

Other observations

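The table row named CENPF but described as centriolin (chr17:8344383-8375229), which was left out of the counts, was at 2.11, 2.21 and 1.71 FPKM in L20 and at 1.49, 1.65 and 1.42 in L30. Its groups did not overlap, with a ratio of 0.755 and an unadjusted p of 0.0716 (limma).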
